A study of Mus musculus with 2 samples.

Results

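TRAJ24 to TRAJ44 are the J segments in the middle of the mouse TCRα joining cluster, and every TCRα clonotype whose first-listed J gene was one of these 21 segments was taken as a member. By this rule 2901 of 6089 TCRα clonotypes in the thymus and 4470 of 9583 in the spleen were members. They held 493338 of 918063 TCRα reads (53.7%) in the thymus and 831562 of 1820314 (45.7%) in the spleen.

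The clonotypes came from 2 libraries, 1 of thymus and 1 of spleen, each made from 15000 sorted CD4 single-positive and CD8 single-positive iT cells taken from iT-B-NDG mice 6 weeks after they received a transplant. iT cells are T cells grown from iR9-ESC, an embryonic stem cell line of C57BL/6 background (CD45.2) with a doxycycline-inducible Runx1-p2a-Hoxa9 cassette in the Rosa26 locus. Blood progenitors were made from these cells in culture with doxycycline on OP9-DL1 feeder cells and transplanted into irradiated B-NDG mice, an immunodeficient strain (CD45.1). The mice were aged 8 weeks by the study's text, while its methods give a range of ages that starts at 8 weeks. TCR transcripts were amplified with a commercial mouse TCR kit, sequenced on a MiSeq and assembled by MiXCR into clonotypes, which are groups of reads that share a CDR3, the stretch where V meets J. All groups thus carried the same engineered line and the same host, and the number of mice behind each library was not given in the sources used here. The study's text describes CD62L+CD44- cells from both tissues, while the gates in its methods list these markers for the spleen only, so whether the gate differed between the tissues is not clear from the sources. With 1 library per tissue there is no replicate check of any difference between thymus and spleen, and no test was made between them.

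A TCRα chain is made when a V segment (TRAV) is cut and joined to 1 of many J segments (TRAJ) by the RAG recombinase. Bases may be removed from either end, and the enzyme TdT may add bases that neither segment encodes. The locus can be joined again by using a V further upstream and a J further downstream, so that early joins pair the V genes nearest to the J cluster with the J genes at its 5′ end. Only joins that keep the reading frame through J can give a receptor protein. The V gene of the members was a TRDV gene in 33 thymus and 51 spleen clonotypes and a TRAV gene in all others. The C gene was TRAC in 2885 and 4434 clonotypes, and none was assigned in the other 16 and 36.

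The germline J segments that the results turn on are printed here from the GENCODE M21 transcripts (GRCm38, plus strand of chromosome 14), with the bases that fall inside the CDR3 in capitals. TRAJ39 (chr14:54179962-54180024) and TRAJ31 (chr14:54187895-54187951) led the members by reads, TRAJ40 (chr14:54177921-54177981) carried the second largest spleen clonotype, TRAJ32 (chr14:54186101-54186166) had the lowest productive share, and TRAJ24 (chr14:54195638-54195700) was read from a shorter reference than the annotated one.
TRAJ40: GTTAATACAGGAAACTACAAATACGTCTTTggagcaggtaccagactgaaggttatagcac
TRAJ39: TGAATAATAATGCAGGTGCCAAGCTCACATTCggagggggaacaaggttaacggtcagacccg
TRAJ32: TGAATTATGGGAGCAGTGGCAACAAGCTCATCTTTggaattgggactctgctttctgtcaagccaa
TRAJ31: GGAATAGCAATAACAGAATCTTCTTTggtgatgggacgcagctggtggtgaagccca
TRAJ24: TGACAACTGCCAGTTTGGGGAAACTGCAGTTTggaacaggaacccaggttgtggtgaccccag

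The CDR3s of the leading clonotypes follow, with the bases aligned to J in capitals. The first is the largest TRAJ39 clonotype of both tissues, the second the largest TRAJ31 clonotype of the thymus, the third the largest TRAJ31 clonotype of the spleen, and the fourth the largest TRAJ40 clonotype of the spleen.
TRAV13-1 with TRAJ39: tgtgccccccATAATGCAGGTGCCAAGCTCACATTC
TRAV8D-2 with TRAJ31: tgtgctacAGCAATAACAGAATCTTCTTT
TRAV7-4 with TRAJ31: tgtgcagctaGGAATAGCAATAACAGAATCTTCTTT
TRAV14N-1 with TRAJ40: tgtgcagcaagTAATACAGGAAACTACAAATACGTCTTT

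The members were 47.6% of TCRα clonotypes in the thymus and 46.6% in the spleen. In the thymus 19 of the 21 J genes were seen and in the spleen 20. TRAJ36, annotated as a pseudogene, had 0 clonotypes in both libraries, so its share of TCRα clonotypes was at most 0.063% in the thymus and 0.0401% in the spleen by the upper Wilson bound. TRAJ29 had 0 clonotypes in the thymus and 1 of 1 read in the spleen, TRAJ41 had 3 in each library, and TRAJ25 had 5 and 10. These counts are of first-listed J genes, and the TRAJ25 records are read below as joins to TRAJ26. The other 17 J genes each had at least 38 clonotypes in the thymus and 78 in the spleen, and ranges below are over these 17. The median member clonotype had 84 thymus reads or 103 spleen reads.

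TRAJ31 had the most clonotypes in both tissues. It held 341 thymus clonotypes (5.60% of TCRα clonotypes, Wilson 95% interval 5.05 to 6.21) and 525 spleen clonotypes (5.48%, 5.04 to 5.95). TRAJ37 came second with 306 (5.03%) and 389 (4.06%), followed by TRAJ27 in the thymus with 299 (4.91%) and TRAJ26 in the spleen with 376 (3.92%). At the other end, TRAJ35 had 38 clonotypes in the thymus and 78 in the spleen, TRAJ24 had 42 and 97, and TRAJ38 had 49 and 90. The most used J gene of the 17 thus had several times the clonotypes of the least used in either tissue, with intervals far apart, while the intervals of TRAJ35, TRAJ24 and TRAJ38 overlapped within each library.

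The order of J use was alike in thymus and spleen. Over the 17 J genes the clonotype shares of the 2 libraries had Pearson's r of 0.949 and Spearman's rho of 0.952, a description across J genes that share their libraries and primers. J genes were set apart by a fold rule, a share at least 1.5 times that of the other library, applied to the 43 TRAJ genes with at least 20 clonotypes in both libraries together. By clonotype share none of the 17 members was higher in the spleen by this rule, against 2.33% of all TRAJ genes, and none was higher in the thymus, against 0% of all TRAJ genes. The spleen-to-thymus fold of the members had a median of 1.04, beside 1.02 over all 43 genes. TRAJ24 lay just under the limit with 1.47, and it passed once clonotypes of 1 read were left out (1.52) and with at least 10 reads (1.58). TRAJ27 was lowest with 0.763.

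**Figure D1:**
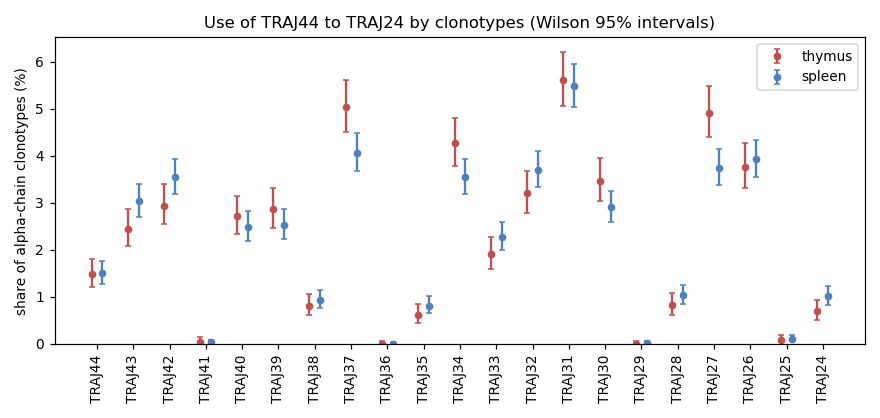
Share of TCRα clonotypes (%, y axis) for each J gene from TRAJ44 to TRAJ24 (x axis, in their order on the chromosome) in the thymus and the spleen library, with Wilson 95% intervals that cover counting error only. TRAJ31 stands highest in both libraries at 5.60% and 5.48%, and TRAJ41, TRAJ36, TRAJ29 and TRAJ25 lie near 0.

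By reads, TRAJ39 led in the thymus with 119119 reads (13.0% of TCRα reads) and TRAJ31 led in the spleen with 115248 (6.33%). TRAJ31 was second in the thymus with 65103 reads (7.09%), TRAJ39 second in the spleen with 81664 (4.49%), and TRAJ37 came next in both with 42371 and 78710. A read share counts RNA, so more cells of a clonotype and more TCR RNA per cell cannot be told apart. By the fold rule TRAJ40, TRAJ33 and TRAJ24 were higher in the spleen, 17.6% of the 17 members against 23.3% of all TRAJ genes. TRAJ39 was higher in the thymus, 5.88% of members against 9.3% of all TRAJ genes. Neither share of members exceeded that of all TRAJ genes.

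The spleen-to-thymus folds of read share were 1.74 for TRAJ40, 1.53 for TRAJ33, 1.77 for TRAJ24 and 0.346 for TRAJ39. For TRAJ40 and TRAJ39 the clonotype shares did not move with the reads, at folds of 0.917 and 0.887. When the largest clonotype of every TRAJ gene was left out, the genes of all TRAJ apart by the rule went from 14 to 7, and the members among them were TRAJ27 and TRAJ24 in place of TRAJ40, TRAJ39, TRAJ33 and TRAJ24. The fold of TRAJ39 was then 1.13 and that of TRAJ40 0.877, so both lay on the other side of 1. Over productive clonotypes only, TRAJ42 passed with 1.51 and TRAJ24 did not with 1.497, while TRAJ40, TRAJ33 and TRAJ39 passed as before.

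**Figure D2:**
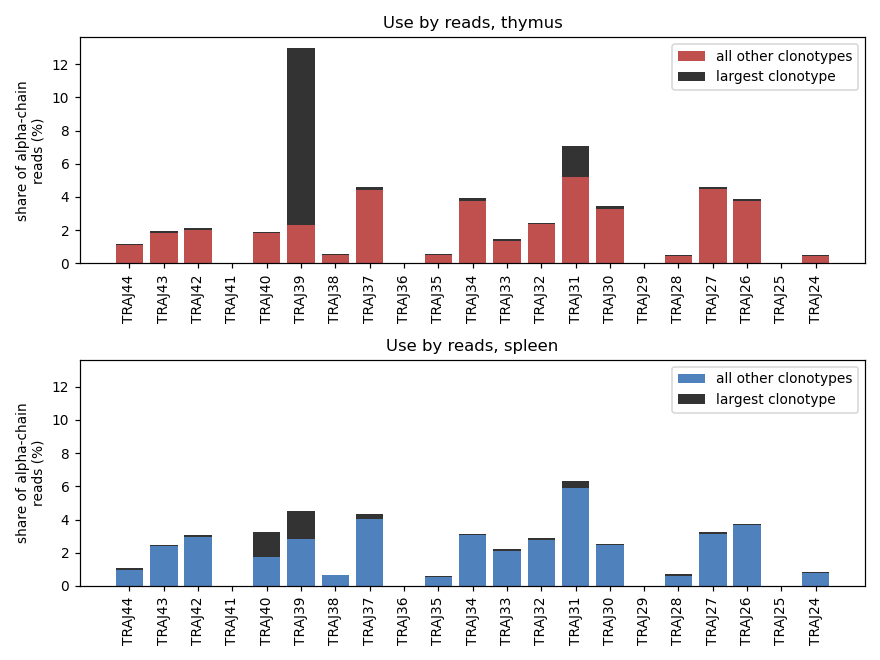
Share of TCRα reads (%, y axis) for each J gene (x axis) in the thymus (upper panel) and the spleen (lower panel), with the largest clonotype of each gene in black and all its other clonotypes in colour. The tallest bar is TRAJ39 in the thymus at 13.0%, most of it black, while 46.8% of the TRAJ40 bar of the spleen is black.

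The read share of TRAJ39 rested on 1 clonotype. The TRAV13-1 clonotype printed above had 98095 reads in the thymus, 82.4% of TRAJ39 reads and 10.7% of all TCRα reads. In the spleen it had 30264 reads, 37.1% of TRAJ39 reads and 1.66% of TCRα reads. It ranked first among the members in both libraries. Its CDR3 was 36 bases long and in frame, with 8 V bases and 6 J bases removed and 5 bases inserted.

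Without this clonotype TRAJ39 held 2.56% of thymus TCRα reads and 2.87% of spleen TCRα reads, and its rank among the members went from first to seventh in the thymus and from second to seventh in the spleen. The next largest TRAJ39 clonotypes had 1216 and 5375 reads. The effective number of TRAJ39 clonotypes, which is how many clonotypes of equal size would give the same Shannon entropy, went from 3.65 to 109 in the thymus and from 38.5 to 116 in the spleen. The share of TRAJ39 reads in productive clonotypes went from 97.6% to 86.6% and from 92.3% to 87.7%. By clonotypes TRAJ39 was near the middle of the members, with 174 in the thymus (2.86%), the median of the 17 genes, and 243 in the spleen (2.54%), where the median was 278. Its median clonotype had 79.5 and 112 reads.

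TRAJ31 depended less on its largest clonotype, which was a different one in each tissue. In the thymus it was the TRAV8D-2 clonotype printed above, of 29 bases and out of frame, with 17499 reads or 26.9% of TRAJ31 reads. The same CDR3 had 4949 reads in the spleen, where it ranked sixth among the members. In the spleen the largest was the TRAV7-4 clonotype, in frame, with 7769 reads or 6.74% of TRAJ31 reads, and 0 of 918063 reads in the thymus, which allows a share of up to 0.000327%.

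Without its largest clonotype TRAJ31 held 5.29% of thymus TCRα reads and 5.93% of spleen TCRα reads, and it then ranked first among the members in both when each gene lost its own largest clonotype. Its effective number went from 90.6 to 214 in the thymus and from 206 to 232 in the spleen. The productive share of its reads in the thymus went from 59.5% to 81.3%, since the clonotype left out was out of frame. In the spleen it went from 80.8% to 79.4%. The leading TRAJ39 clonotype had 5.61 times as many reads as the TRAV8D-2 clonotype with TRAJ31 in the thymus, and in the spleen 6.12 times as many.

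These clonotypes shaped the members as a whole in the thymus. Over all members the effective number was 583 for the thymus library and 1880 for the spleen library. Leaving out the largest TRAJ39 and TRAJ31 clonotypes gave 1764 and 2168. The 10 largest member clonotypes held 25.7% of member reads in the thymus, against 11.7% in the spleen. After these 2 clonotypes, the next largest in the thymus was TRAV16N with TRAJ37, which had 1970 reads there and 418 in the spleen. In the spleen the second largest was the TRAV14N-1 clonotype with TRAJ40, which had 27883 reads, 46.8% of TRAJ40 reads, and 0 of 918063 reads in the thymus. Without it TRAJ40 went from 3.27% to 1.77% of TCRα reads in the spleen, and from rank 5 to rank 12 among the members, beside 1.81% in the thymus without its own largest clonotype of 582 reads.

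The same CDR3 nucleotide sequence was found in both libraries for 319 members. They were 11% of the thymus and 7.14% of the spleen member clonotypes, and held 35.0% and 15.6% of member reads. The leading TRAJ39 clonotype alone was 19.9% of thymus member reads. Of other TRAJ clonotypes 380 were shared, at 11.9% and 7.43%, so sharing was not particular to the members. Of the shared member CDR3s, 56.7% had no inserted base by their thymus entry and 58.3% by their spleen entry, against 30.5% and 41.8% of all members. For the shared CDR3s of other TRAJ genes these were 60.3% and 61.1%.

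The productive share differed between member and other joins in the thymus. A clonotype was called productive where its CDR3 kept the frame and held no stop codon. In the thymus 2071 of 2901 members were productive (71.4%, 69.7 to 73.0) against 2474 of 3188 other TRAJ clonotypes (77.6%, 76.1 to 79.0), a difference of -6.21 points (Fisher's exact test, two-sided, adjusted p = 1.73e-07 over 6 tests). In the spleen the shares were 69.1% (67.8 to 70.5) and 69.6% (68.4 to 70.9), a difference of -0.52 points that did not pass (Fisher's exact test, adjusted p = 0.594). These tests, and those below, count clonotypes of 1 library. They do not measure the spread between J genes and do not speak for other mice. Whether the middle-to-other difference itself differed between the tissues was not tested.

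Nearly all nonproductive members were frameshifts, 821 of 830 in the thymus and 1363 of 1380 in the spleen. None of the 20 germline segments that were seen holds a stop codon in its CDR3 frame, and TRAJ36 was not checked. Weighted by reads, 83.7% of the thymus and 84.5% of the spleen member reads were productive.

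TRAJ32 had the lowest productive share in both tissues, 52.3% (45.3 to 59.2) in the thymus and 53.1% (47.9 to 58.2) in the spleen. All its nonproductive clonotypes were frameshifts, 93 of 195 and 166 of 354. Its interval lay below that of TRAJ31, which had 68.6% (63.5 to 73.3) and 64.8% (60.6 to 68.7). It overlapped that of the next lowest gene, which was TRAJ38 in the thymus at 61.2% (47.2 to 73.6). In the spleen this was TRAJ35 at 55.1% (44.1 to 65.7). The highest share was that of TRAJ24 in the thymus at 85.7% (72.2 to 93.3) and of TRAJ44 in the spleen at 79.2% (71.8 to 85.0). TRAJ24 was at 70.1% in the spleen and TRAJ44 at 85.6% in the thymus. TRAJ39 was at 78.7% (72.1 to 84.2) in the thymus and 69.1% (63.1 to 74.6) in the spleen.

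**Figure D3:**
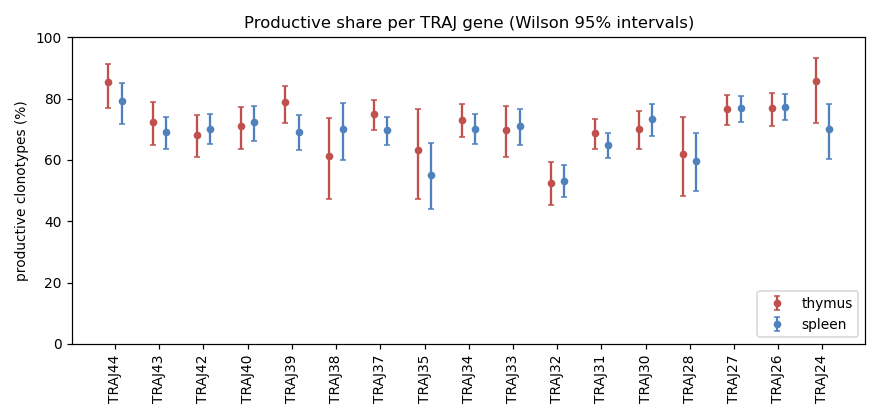
Productive clonotypes (%, y axis, 0 to 100) for the 17 J genes with at least 20 clonotypes (x axis) in the thymus and the spleen library, with Wilson 95% intervals for counting error. TRAJ32 is lowest in both libraries at 52.3% and 53.1%, and all other genes lie between 55.1% and 85.7%.

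Member J segments lost few bases before joining, and the share that kept the whole J was lower than in the pooled other TRAJ joins. The mean number of bases trimmed from J was 2.86 (SD 2.83) over thymus members and 2.82 (SD 3.02) over spleen members, with a median of 2 in both. An untrimmed J was seen in 27.3% (25.7 to 29.0) of thymus members against 31.1% (29.6 to 32.8) of other TRAJ clonotypes, and in 29.6% (28.2 to 30.9) of spleen members against 32.6% (31.3 to 33.9). Both differences passed (Fisher's exact test, adjusted p = 0.00218 in each library). The untrimmed share depends on the J reference, whose length differed from the annotation for TRAJ24 and for 7 of the other TRAJ genes. Without these 8 genes the differences were -5.34 points in the thymus and -4.67 in the spleen, beside -3.81 and -3.03 over all genes, and both passed (Fisher's exact test, adjusted p = 2.68e-05 and 1.1e-05). Among productive clonotypes alone the thymus difference was -1.96 points and did not pass (Fisher's exact test, adjusted p = 0.146).

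Trimming differed more between J genes than between tissues. TRAJ39 lost the most, 4.90 bases (SD 3.16) on average in the thymus and 4.67 (SD 3.40) in the spleen. It was followed by TRAJ35 (4.39) and TRAJ40 (4.15) in the thymus, and by TRAJ32 (4.10) and TRAJ26 (3.92) in the spleen. TRAJ38 lost 1.14 and 1.66, TRAJ37 lost 1.77 and 1.79, and TRAJ30 lost 2.0 and 1.72. Over the 17 J genes the mean trimming of the 2 libraries had r of 0.917 and rho of 0.949, again a description across genes. The J bases of 603 thymus and 1261 spleen members overlapped the V bases, and such bases were counted for both.

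TRAJ24 had the least trimming after TRAJ38 in the thymus, 1.40 bases, and the least of all in the spleen, 0.42. Its deposited reference was 56 bases long, 7 fewer than the annotated segment of 63, and the missing bases are the first ones, at the joining end. TRAJ24 was the only member of the 20 seen whose reference length differed from the annotated one. When the annotated start was used, its mean trimming became 4.60 in the thymus and 3.03 in the spleen, its untrimmed share went from 90.5% to 9.52% and from 95.9% to 18.6%, and its share without insertion went from 16.7% to 35.7% and from 9.28% to 51.5%. Its mean number of inserted bases went from 7.76 to 4.57 in the thymus and from 5.34 to 1.67 in the spleen. The low trimming of TRAJ24 in the deposited records thus went with the shorter reference, as did its many inserted bases in the spleen. In the thymus its mean insertion was still the highest of the 17 J genes, with TRAJ27 next at 3.83. These means rested on few clonotypes with long gaps. The TRAJ24 median from the annotated start was 1.5 in the thymus, beside 2 over all thymus members. Of its 42 thymus clonotypes, 6 had more than 10 inserted bases as deposited, and 3 of these held TRAC bases. TRAJ27 had a median of 2 (SD 12.5).

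Joins without inserted bases were fewer among members than among other TRAJ joins in both libraries. They were 885 thymus members, 30.5% (28.9 to 32.2), against 33.9% (32.3 to 35.5) of other TRAJ clonotypes (Fisher's exact test, adjusted p = 0.00615). In the spleen they were 1869 members, 41.8% (40.4 to 43.3), against 46.9% (45.5 to 48.2) (Fisher's exact test, adjusted p = 2.28e-06). The differences were -3.37 and -5.05 points.

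Between tissues, the share without insertion was higher in the spleen for 16 of the 17 J genes. The exception was TRAJ24, which was also higher in the spleen when read from its annotated start. The largest gap was that of TRAJ39, at 24.1% (18.4 to 31) in the thymus and 45.3% (39.1 to 51.6) in the spleen. TRAJ28 was at 38% (25.9 to 51.8) and 56.6% (46.7 to 65.9), and TRAJ40 at 23.6% (17.8 to 30.7) and 42.0% (35.9 to 48.4). TRAJ31 had 32.8% (28.1 to 38) and 41.0% (36.8 to 45.2), so that its intervals overlapped. Thymus members had a median of 2 inserted bases and spleen members a median of 1. The difference was seen in both frames, with 29.99% and 38.6% without insertion among productive members and 31.8% and 49.4% among frameshifts.

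By the deposited ends, members without insertion had less J trimming in each library. Members without insertion had lost 1.96 J bases on average in the thymus (SD 2.38, 885 clonotypes) and those with an insertion 3.25 (SD 2.92, 2016 clonotypes). In the spleen the means were 2.16 (SD 2.40, 1869 clonotypes) and 3.29 (SD 3.32, 2601 clonotypes). The V and J ends overlapped in 603 of the 885 thymus and 1261 of the 1869 spleen members without insertion. Shared bases count for both V and J there, which lowers the trimming by definition. These means therefore cannot show whether trimming and insertion are linked.

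**Figure D4:**
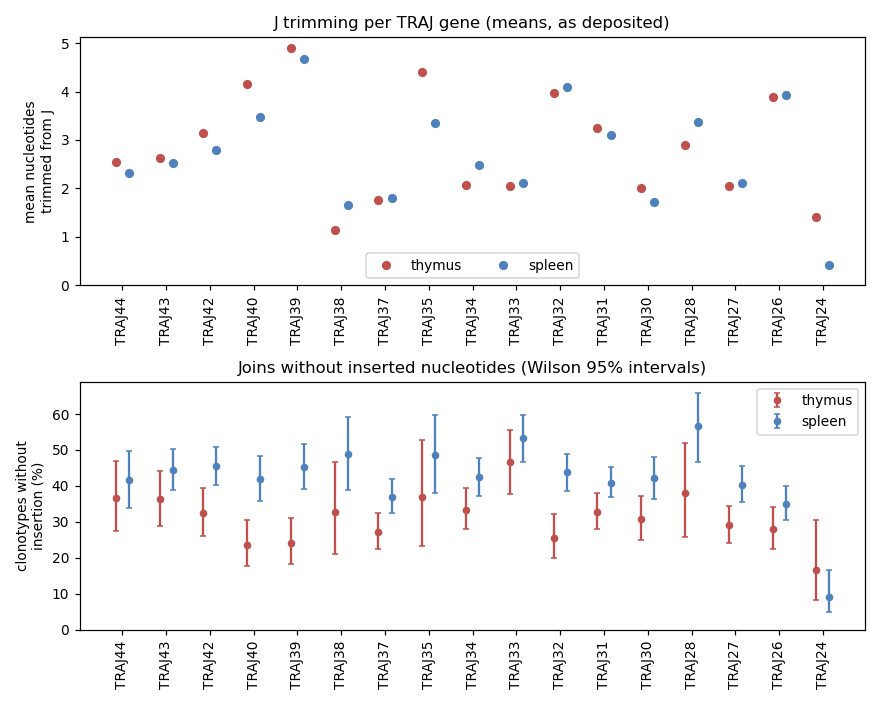
Upper panel, mean number of bases trimmed from J (y axis) for the 17 J genes (x axis) in each library, as deposited. Lower panel, clonotypes without inserted bases (%, y axis) with Wilson 95% intervals. TRAJ39 is highest in the upper panel at 4.90 and 4.67, spleen points lie above thymus points for 16 of 17 genes in the lower panel, and TRAJ24 is read from its shorter reference in both panels.

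Few members had more than 10 bases between V and J, 41 in the thymus (1.41%) and 53 in the spleen (1.19%). Among other TRAJ clonotypes there were 29 (0.91%) and 66 (1.29%), and the difference was not tested. All 5 thymus and 10 spleen TRAJ25 clonotypes were among these members, with 106 to 116 bases. None of the 15 was productive. Each held the 3′ end of TRAJ26, the neighbouring segment upstream, over 49 to 57 of its 60 bases, then 55 further bases and then TRAJ25 from its first base. By their letters these records are V joined to TRAJ26, with TRAJ25 following in the same transcript. On the chromosome TRAJ26 ends at base 54194549 and TRAJ25 starts at base 54194815, further apart than 55 bases. The records are thus not the unbroken germline stretch, and where the 55 bases come from was not determined. The record with the most reads, 75 in the spleen with TRAV16N, is printed with its TRAJ26 bases in capitals.
TRAV16N with TRAJ25: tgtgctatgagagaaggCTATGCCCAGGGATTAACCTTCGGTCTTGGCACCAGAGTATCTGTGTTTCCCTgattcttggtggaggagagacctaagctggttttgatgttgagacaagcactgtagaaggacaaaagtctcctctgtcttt
A further 6 thymus and 19 spleen members with such gaps held at least 20 bases in a row of TRAC, the constant segment, among them the only TRAJ29 clonotype and 1 of the 3 TRAJ41 clonotypes in each library. In the thymus 5 of the 6 TRAJ27 clonotypes with such gaps held TRAJ30 or TRAJ31 bases. By this reading no TRAJ25 clonotype of either library was a V joined to TRAJ25. The count of TRAJ29 holds no clonotype free of TRAC bases, and the use of TRAJ41 rests on fewer clonotypes than its counts.

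Members used 118 V genes in the thymus, in 1031 V-J pairs, and 117 in the spleen, in 1268 pairs. These were 46% and 54.2% of the pairs possible among the V and J genes seen. The top V score was tied between V genes in 22.99% and 23.2% of members, since many mouse TRAV genes have near-identical copies, so single V names are uncertain where tied. In the thymus the V genes with the most members were TRAV16D-DV11 (117 clonotypes), TRAV6-6 (107), TRAV16N (98), TRAV12-2 (92), and TRAV7-2 and TRAV6D-7 with 85 each. In the spleen they were TRAV12-2 (182), TRAV16N (166), TRAV16D-DV11 (157), TRAV13-1 (130) and TRAV6-6 (124). Every TRAV6-6, TRAV7-2 and TRAV6D-7 clonotype of these was tied with another V gene, and no TRAV12-2, TRAV13-1 or TRAV16N clonotype was.

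TRAV12-2 and TRAV13-1 took a larger share of members than of other TRAJ joins in both libraries. TRAV12-2 was 3.17% (2.59 to 3.87) of thymus members beside 1.32% of other joins, and 4.07% (3.53 to 4.69) of spleen members beside 1.51%. TRAV13-1 was 2.72% (2.19 to 3.38) beside 1.32% in the thymus and 2.91% (2.45 to 3.44) beside 1.31% in the spleen. These differences were not tested. The related TRAV12D-2 and TRAV12N-2 went the other way in the thymus, at 1.07% beside 1.79% and 0.55% beside 1.54%. In the spleen they were at 2.04% beside 3.07% and 1.36% beside 1.21%. The whole TRAV12 family was 10.4% of thymus members beside 10.8% of other joins, and 13.9% beside 10.9% in the spleen. For the TRAV13 family these were 7.69% beside 6.56% and 9.13% beside 7.61%. The V-J pair with the most clonotypes was TRAV16D-DV11 with TRAJ31 in the thymus (18) and TRAV16N with TRAJ42 in the spleen (32). By reads the leading pair was TRAV13-1 with TRAJ39 in both, with 98208 and 30755 reads, nearly all from the 1 clonotype.

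V genes near the J cluster, TRAV17 to TRAV21, were used by members less than by the J genes upstream and more than by those downstream. They were joined to 74 of 2901 thymus members, 2.55% (2.04 to 3.19), against 10.6% (8.71 to 12.8) of clonotypes of TRAJ45 and upstream and 0.435% (0.237 to 0.799) of TRAJ23 and downstream. In the spleen they were joined to 160 of 4470 members, 3.58% (3.07 to 4.17), against 16.7% (14.8 to 18.7) and 0.353% (0.206 to 0.603). Each of the 4 differences passed (Fisher's exact test, two-sided, adjusted over the 4), with adjusted p of 3.37e-20 and 2.20e-10 in the thymus. In the spleen Fisher's exact test gave adjusted p of 2.88e-55 and 6.81e-28. This test was chosen after the values were seen.

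The same order held inside the middle of the cluster. From TRAJ38 to TRAJ44 these V genes were 4.70% (3.44 to 6.38) of thymus and 7.05% (5.80 to 8.55) of spleen clonotypes. From TRAJ31 to TRAJ37 they were 2.15% (1.48 to 3.11) and 2.89% (2.23 to 3.74), and from TRAJ24 to TRAJ30 they were 1.08% (0.567 to 2.03) and 0.82% (0.446 to 1.5). By single J gene the share was highest for TRAJ39 in the thymus at 6.90% (12 of 174) and for TRAJ43 in the spleen at 10% (29 of 290). Over the 17 J genes the share and the J number had r of 0.428 and rho of 0.390 in the thymus, and r of 0.920 and rho of 0.951 in the spleen. These are descriptions across genes, and the thymus shares rest on 12 clonotypes or fewer per gene. The most distant V families, TRAV1 and TRAV2, were joined to 11 members in each library, 0.379% in the thymus and 0.246% in the spleen.

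**Figure D5:**
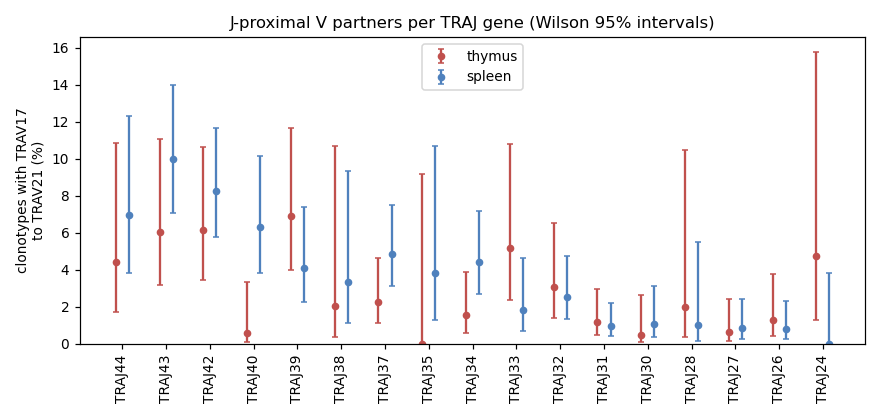
Clonotypes joined to TRAV17 to TRAV21 (%, y axis) for the 17 J genes (x axis, from the 5′ end at TRAJ44 to the 3′ end at TRAJ24) in each library, with Wilson 95% intervals. In the spleen the share is highest at TRAJ43 with 10% and 0 at TRAJ24, and the thymus intervals are wide.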

How the data were processed

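Members and lists were chosen with earlier results of these data known. The authors assembled clonotypes with MiXCR and the gene library it brings, after bcl2fastq per the labels. They deposited for each clonotype the count of reads, not normalized, and the fraction this makes of the library's reads on both chains. Molecular identifiers and filters are not given in the sources used here, and intervals and floors thus cover counting error alone. A floor of 3 reads was 0.000327% of the TCRα reads for the thymus and 0.000165% for the spleen.

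From the deposited counts, TCRα clonotypes were those whose first-listed J is a TRAJ gene, with no read minimum, and shares were recomputed over TCRα. Insertions were the gap between the deposited ends of V and J, which leaves palindromic bases out. Trimming was the number of J bases deleted, and a J with 0 deleted bases or a palindromic stretch was untrimmed. In each library 3 shares of members and other TRAJ clonotypes were compared by Fisher's exact test (two-sided, each clonotype counted once, Benjamini-Hochberg over the 6 tests). Intervals are Wilson 95%.

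Named were TRAJ39, TRAJ31, the 3 members with most and fewest clonotypes, most reads, and most and least trimming, members at least 1.5 times apart between libraries, the 5 leading V genes and the 3 largest clonotypes per library, with other extremes chosen after their values were seen. Coordinates and germline J sequences came from GENCODE M21 (GRCm38). The genome build of the deposited files is not given in the sources used here. Scripts used Python 3.11.15, pandas 2.3.3, numpy 2.4.6, scipy 1.17.1 and matplotlib 3.10.9, and were tested on simulated data. Alternatives were a minimum of 2 or 10 reads, tied J left out, merging of near-identical clonotypes, productive clonotypes only, at most 1 deleted base as untrimmed, and no largest clonotype. The TCRβ clonotypes were not analysed here.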

Additional observations from a re-analysis of the deposited data

How the results depend on the processing

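No paired analysis was possible because each tissue has 1 library. Of 165 recomputed values for 28 results, 138 were kept, 26 moved and 1 test was lost. A share was kept if it stayed inside its main Wilson interval, and a count if within 1.5 times. A test was kept if its adjusted p stayed on the same side of 0.05. Only the 6 tested differences could change sign, and none did. A count kept within 1.5 times need not hold the same genes. The count of TRAJ genes 1.5 times apart in clonotype share was 1, TRAJ47. With at least 2 reads it was again 1, but TRAJ24, and with at least 10 reads it was 2, TRAJ24 included. Tied J and merging took no result across its limit. With productive clonotypes only that count was also 2, in read share TRAJ42 took the place of TRAJ24 among the members, and the untrimmed difference in the thymus (-1.96 points, Fisher's exact test, adjusted p = 0.146) no longer passed. The same setting gave a member share of thymus clonotypes of 45.6%, of reads of 53.1% and 45.1% in thymus and spleen, TRAJ39 shares of member reads of 28.2% and 10.7%, TRAJ31 shares of 9.37% and 13.3%, proximal V shares of 1.98% and 3.04%, and 38.6% of spleen members without insertion. Without the largest TRAJ39 and TRAJ31 clonotypes, the member read shares were 47.1% and 44.5%, TRAJ39 was 5.57% and 6.48% of member reads against 24.1% and 9.82%, and TRAJ31 was 12.6% and 13.5%. Counting a J with at most 1 deleted base as untrimmed gave 39.9% and 41.4%, with differences from other TRAJ of -6.45 and -6.06 points. Other alternatives were chosen after seeing the data. Counting palindromic bases as inserted gave 20.8% and 30.3% without insertion, and a spleen difference of -3.04 points. Reading TRAJ24 from its annotated start gave 27.9% of spleen members untrimmed, a difference of -4.71 points. Leaving out the 8 J genes whose reference length differed gave untrimmed differences of -5.34 and -4.67 points. Leaving out tied V genes gave proximal shares of 3.31% and 4.66%. Leaving out the largest clonotype of each TRAJ gene took the count apart in read share from 14 to 7 and put the folds of TRAJ39 and TRAJ40 on the other side of 1. Taking palindromic bases off the gap could give no other value, since the gap already leaves them out. Depth limits J genes of few clonotypes, and reads are not independent molecules.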
